A study of Drosophila melanogaster with 4 samples.

Results

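The Iroquois genes and the wing and leg selector genes were followed here in RNA that had been pulled down with an antibody to GFP from larvae making a GFP fusion of the splicing factor B52. The members were ara, caup, mirr, ap, vg, sd, Dll, nub, en and ci, and a probe counted when the platform annotation gave it a single gene symbol that is now one of these names. Of the 10 genes 9 had such a probe, and sd had none. As Dll had 2 probes and the others 1 each, the members came to 10 of the 15744 probes and to 9 of the 12236 genes named by a single-symbol probe. All 10 probes had a value on all 4 arrays.

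The study asked which messenger RNAs B52 may bind in the developing eye, and set third-instar larvae of the genotype GMR X GFP-B52 against GMR X GFP-NLS larvae, in which GFP carries a nuclear localisation signal. Both groups carry GMR and were precipitated with anti-GFP. GMR drives expression in the developing eye, behind the furrow that sweeps across the eye disc, so that the tagged protein is made mainly there. Each extract came from the dissected front ends of 600 pooled larvae, which hold the brain, the eye-antennal discs and other tissues as well. Polyadenylated RNA from both precipitates was hybridised to the same two-colour array, in 2 replicates with both dye orientations each. Whether the replicates came from separate pools of larvae is not stated in the labels, so every p-value reflects no more than how far these samples differ, and that may be technical variation. The dye orientations of a replicate were averaged, so n is 2 throughout, and the number of arrays limits the precision.

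Iroquois proteins are homeodomain transcription factors of the TALE class whose genes lie side by side in a complex. In the eye disc ara, caup and mirr mark the dorsal part and keep fringe off there, which sets up the line of Notch signalling at the dorsal-ventral midline from which the eye grows. The other members except ci are selector genes, which give a field of cells its identity. Of these ap makes the dorsal wing compartment, vg with its DNA-binding partner sd the wing field and nub the wing pouch. Dll makes the distal leg and antenna and en the posterior compartment, while ci transmits the Hedgehog signal in the anterior compartment.

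Each value is a log ratio of the precipitates on an array. Neither its log base nor its direction is stated. Read as a ratio of dyes, it must change sign with the dye orientation, so the arrays with GFP-B52 RNA in Cy5 were multiplied by -1. The positive side is that of B52 probe 13309, the farthest from 0 of the 5 B52 probes tested, at 0.47 ± 0.05 log units (SD, n = 2); the other 4 lay between -0.326 and 0.131. The sign was chosen after that probe's values were seen, and which precipitate was higher on either side is unknown. The mean without turning is the value if the columns already hold a fixed ratio of the precipitates, and otherwise a dye effect; it is given beside the turned mean. Under turning, the arrays of a replicate ran against each other in replicate 1, at r = -0.608 across probes, and correlated at r = 0.167 in replicate 2, while between the replicates the pair in Cy5 correlated at r = 0.266 and the pair in Cy3 at r = 0.258. Of the mean square over all probes the turned mean took 22.6% and the mean without turning 40.2%. The difference between replicates took 12.3% for the turned values and 24.9% for the values without turning. The latter share was larger than that of the turned mean. The main test below took its spread from the 12.3% share alone. As ratios carry no level, neither the presence of eye tissue nor signal over background could be checked here. In RNA precipitated from pooled tissue, differences in the number of cells of a type, in RNA per cell and in RNA bound cannot be told apart.

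With turning, the members lay mostly on the negative side, away from B52 probe 13309, and the lowest means were those of mirr, ap and ara. Without turning the lowest were mirr at -0.146, vg at -0.13 and ara at -0.111, and ap was the highest at 0.117. The order also moved when an array was left out: without replicate 1 in Cy5, vg at -0.165 and caup at -0.143 lay below ap at -0.142, and without replicate 1 in Cy3, ci at -0.17 lay below ara at -0.143. Of the 10 member probes 8 had a mean below 0, against a background of 51.2% of the 13963 probes tested. Both replicate means were below 0 for 7 of the 10, against a background of 31.6%. The median of the 9 member genes was -0.12 log units, against -0.0072 over all 11173 genes tested; without turning the members' median was -0.018, with 5 of 9 below 0. In limma on the replicate means, with Benjamini-Hochberg adjustment over all probes, 0 of the 10 passed an adjusted p of 0.05, and the background was 0.0%. An unadjusted p under 0.05 was reached by 4 member probes on the negative side (background 7.73%) and by 0 on the positive side (background 5.22%). These were the probes of ara, mirr and ap and Dll probe 15415. Arrays of replicate 1 ran against each other, so part of their scatter cancels in the replicate mean and is missing from these p-values. With the 4 arrays as separate samples, ara, mirr and ap stayed under 0.05 in limma, while Dll probe 15415 had 0.0637. When the 4 arrays were fitted with replicate as a random block, 2 member probes passed in limma, those of ara and ap, both at an adjusted p of 0.0413, beside 447 probes in all. That fit used a correlation of -0.66 between arrays of a replicate, which narrows the standard errors.

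**Figure D1:**
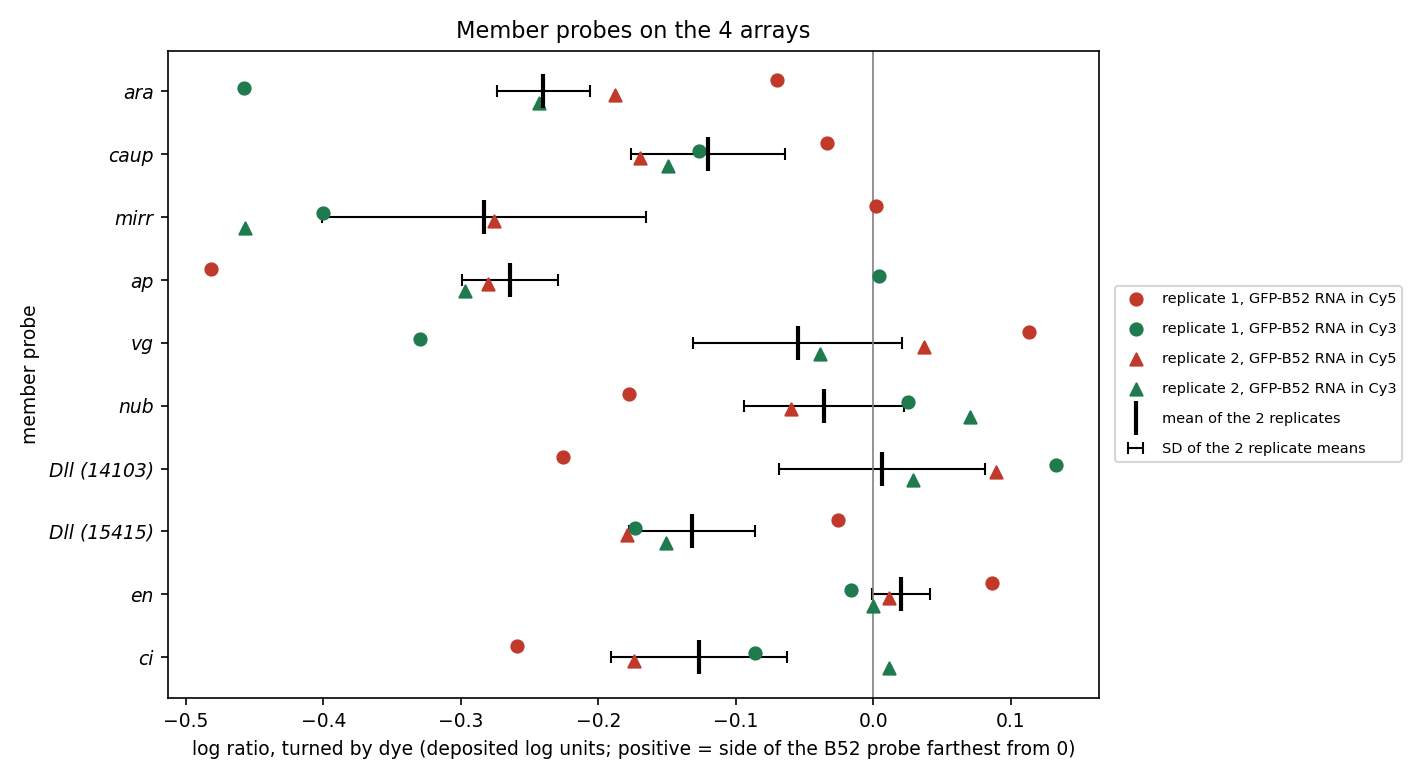
Turned log ratios of the 10 member probes on the 4 arrays, in deposited log units on the x axis, with 1 probe per row (probe number given for Dll). Red stands for GFP-B52 RNA in Cy5 and green for Cy3, circles for replicate 1 and triangles for replicate 2, and the black bar and whiskers give the mean and SD of the 2 replicate means. The probes of ara and caup and Dll probe 15415 are below 0 on all 4 arrays, whereas vg and nub change side with the dye.

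Of the Iroquois genes, ara (araucan, CG10571, arm 3L) lay at -0.070 and -0.458 log units on the arrays of replicate 1, and at -0.188 and -0.243 on those of replicate 2; here and below the array with GFP-B52 RNA in Cy5 comes before that in Cy3. All 4 values were negative, and the distance between the dye orientations was wide in replicate 1 and narrow in replicate 2. The replicate means of -0.26 and -0.22 gave a mean of -0.24 ± 0.03 (SD, n = 2), and without the array of replicate 1 in Cy3 the mean was -0.143. If the logs are to base 10 that is 1.74-fold, and if to base 2 it is 1.18-fold, at an unadjusted p of 0.00478 and an adjusted p of 0.274 in limma. Of all probes tested, 2.31% lay as low or lower. The mean without turning was -0.11.

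Its neighbour caup (caupolican, CG10605, arm 3L), whose protein is closely related and acts with ara in bristle and vein patterning, had values of -0.034 and -0.127 in replicate 1 and of -0.170 and -0.149 in replicate 2. All 4 were negative here too, with the array of replicate 1 in Cy5 nearest to 0. The mean was -0.12 ± 0.06 (SD, n = 2; adjusted p = 0.411 in limma), and 10.7% of all probes lay as low or lower. Without turning it was -0.02, so that caup was near 0 on that reading.

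The third gene of the complex, mirr (mirror, CG10601, arm 3L), named for its part in the dorsal-ventral mirror symmetry of the eye, lay at 0.002 and -0.400 in replicate 1 and at -0.276 and -0.457 in replicate 2. Only the array of replicate 1 in Cy5 was not below 0. Of the members mirr had the lowest mean, -0.28, and also the widest spread between replicates, with an SD of 0.12 (n = 2; adjusted p = 0.277 in limma). Its mean is 1.92-fold in base 10 or 1.22-fold in base 2, and 1.19% of all probes lay as low or lower. Without the array of replicate 1 in Cy3 the mean was -0.182, and without turning it was -0.15.

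On all 4 arrays ara was lower than caup, with differences between -0.331 and -0.018 log units, and ara minus caup was -0.12 ± 0.09 (SD, n = 2). The difference ara minus mirr was 0.04 ± 0.15, within the spread between replicates, with ara lower on 2 of 4 arrays. For caup minus mirr it was 0.16 ± 0.06, with caup higher on 3 of 4 arrays. These differences were not tested. All 3 Iroquois genes were at their highest on the array of replicate 1 with GFP-B52 RNA in Cy5, at -0.070 for ara, -0.034 for caup and 0.002 for mirr.

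The genes that flank the complex in the RefSeq gene order (assembly Release 6) lay nearer to 0 or above it. No other protein-coding gene stands between ara, caup and mirr in that order. On the ara side, sowah lay at 0.03 ± 0.04 log units and CG4069 at 0.11 ± 0.07. On the mirr side, SmD1, which encodes a core spliceosomal protein, lay at -0.004 ± 0.051 and the receptor tyrosine phosphatase gene Ptp69D at -0.05 ± 0.08 (SD, n = 2 each; sowah through 1 of its 2 probes, the other having no value on at least 1 array). In limma their adjusted p ran from 0.452 for CG4069 to 0.978 for SmD1. The sowah probe followed the dye, with 0.536 and 0.223 in Cy5 against -0.538 and -0.102 in Cy3.

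By root mean square distance over the 4 arrays, the gene closest to the median profile of the Iroquois genes was otk, off-track, which encodes a receptor-like protein of the tyrosine kinase family, at a distance of 0.0285 log units. Its values were -0.052 and -0.387 in replicate 1 and -0.153 and -0.282 in replicate 2. The next were the metallophosphoesterase gene Mppe at 0.0378 and IntS8, a subunit gene of the Integrator complex, at 0.0398. For comparison, ara itself stood at 0.0341 from that median, mirr at 0.117 and caup at 0.145. Among 11173 genes and over 4 arrays, such close profiles are a description only.

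**Figure D2:**
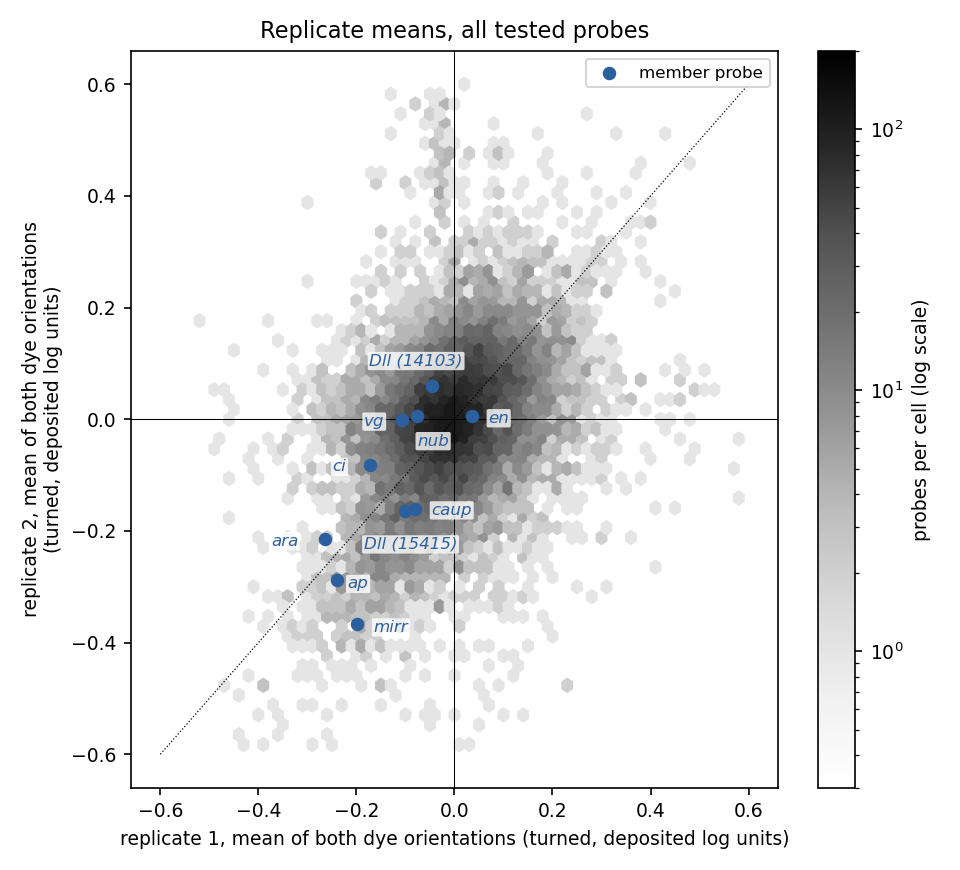
Mean of both dye orientations in replicate 1 (x axis) and replicate 2 (y axis), turned and in deposited log units, with all tested probes as grey cells shaded by number and the 10 member probes in blue; the dotted line marks equal values and probes beyond the axes are not drawn. The probes of ara, caup, mirr, ap, ci and Dll 15415 lie below 0 in both replicates by 0.08 or more, and those of vg, nub, en and Dll 14103 lie within 0.11 of 0.

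Among the wing members ap (apterous, CG8376, arm 2R), a LIM-homeodomain factor that also acts in neurons of the brain, had the lowest turned mean. Its differences from vg and nub were not tested, and on the array of replicate 1 in Cy3 vg was lower, at -0.33. The values of ap were -0.482 and 0.004 log units in replicate 1 and -0.280 and -0.297 in replicate 2. The array of replicate 1 in Cy3 was close to 0, and the other 3 were negative. Its replicate means of -0.24 and -0.29 gave a mean of -0.26 ± 0.04 (SD, n = 2), which is 1.84-fold in base 10 or 1.20-fold in base 2. The unadjusted p of 0.00329 was the smallest of all members and the adjusted p was 0.268 in limma. Of all probes, 1.60% lay as low or lower. Without the array of replicate 1 in Cy5 the mean was -0.142, and without turning ap was on the other side of 0, at 0.12.

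The wing-field gene vg (vestigial, CG3830, arm 2R) had values of 0.113 and -0.330 in replicate 1 and of 0.037 and -0.039 in replicate 2. Both arrays in Cy5 were above 0 and both in Cy3 below it, so its turned mean of -0.05 ± 0.08 was closer to 0 than the mean without turning, -0.13 (adjusted p = 0.683 in limma for the turned mean). Its partner gene sd had no single-symbol probe, and no probe with several symbols named it either.

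The POU-homeodomain gene nub (nubbin, CG34395, arm 2L) followed the dye the other way, with -0.178 and 0.025 in replicate 1 and -0.060 and 0.070 in replicate 2. Its turned mean was -0.04 ± 0.06 and its mean without turning 0.08 (adjusted p = 0.782 in limma for the turned mean). Next to it in the genome lies its paralog pdm2, at -0.04 ± 0.04, and nub minus pdm2 was 0.01 ± 0.10 (SD, n = 2).

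The 2 probes of Dll (Distal-less, CG3629, arm 2R), a homeodomain gene that is active in the antennal part of the eye-antennal disc, lay apart on most arrays, a difference that was not tested. Probe 15415 lay at -0.026 and -0.173 in replicate 1 and at -0.179 and -0.151 in replicate 2, all below 0. Its mean was -0.13 ± 0.05 (SD, n = 2; unadjusted p = 0.0431 and adjusted p = 0.373 in limma). Probe 14103 lay at -0.226 and 0.133 in replicate 1 and at 0.089 and 0.029 in replicate 2, with a mean of 0.01 ± 0.07 (adjusted p = 0.966). Only on the array of replicate 1 in Cy5 was probe 14103 the lower of the pair. Averaged over both probes Dll lay at -0.06 ± 0.01, and without turning at 0.0225; the positions of the probes in the transcript were not used here.

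Of the compartment genes, en (engrailed, CG9015, arm 2R) was the member gene nearest to 0. It lay at 0.086 and -0.016 in replicate 1 and at 0.011 and 0.000 in replicate 2, with a mean of 0.02 ± 0.02 (SD, n = 2; adjusted p = 0.875 in limma). It was the only member gene with a positive mean, and without turning it lay at -0.03. Its neighbour and paralog inv (invected) had a mean of -0.19 ± 0.05, with -0.089 and -0.225 in replicate 1 and -0.318 and -0.141 in replicate 2. On all 4 arrays en was higher than inv, and en minus inv was 0.21 ± 0.03 (SD, n = 2); this difference was not tested.

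The Hedgehog effector gene ci (cubitus interruptus, CG2125, chromosome 4) lay at -0.259 and -0.086 in replicate 1 and at -0.174 and 0.011 in replicate 2. The arrays in Cy5 were lower than those in Cy3 in both replicates. The mean of -0.13 ± 0.06 had an unadjusted p of 0.0562 and an adjusted p of 0.394 in limma, and without turning it was 0.09.

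The 6 probes of ara, caup, mirr, ap, ci and Dll 15415 were thus farther from 0 with turning than without, and the probes of vg, nub, en and Dll 14103 were not; over all probes 38.4% were farther from 0 with turning. Below 0 on all 4 arrays were 3 of the 10 probes, those of ara and caup and Dll 15415, against a background of 8.04%. Without turning no member passed in limma, with adjusted p between 0.652 for mirr and 0.978 for caup.

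**Figure D3:**
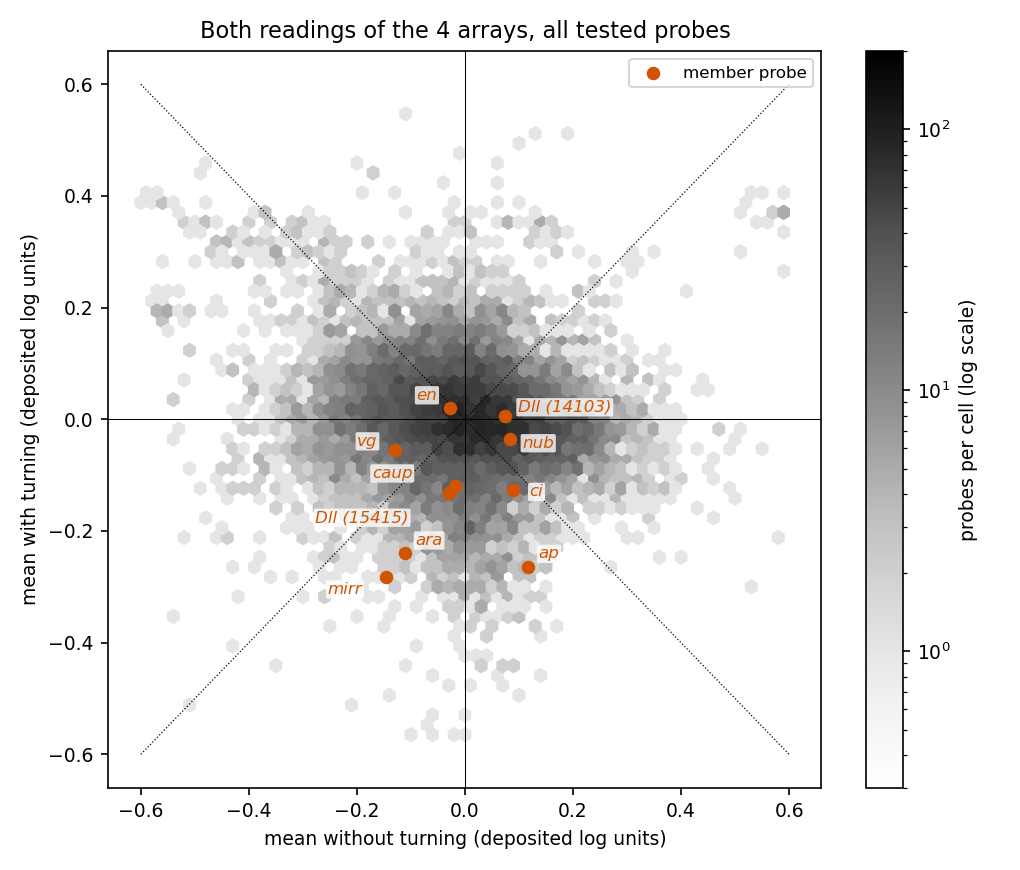
Mean of the 4 arrays without turning (x axis) and with turning (y axis) in deposited log units, with all tested probes as grey cells shaded by number and the 10 member probes in orange; dotted lines mark equal distance from 0 on both axes and probes beyond the axes are not drawn. The probes of mirr, ap and ara lie lowest, between -0.283 and -0.24 with turning, and between -0.146 and 0.117 without.

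When probes of a gene were averaged and genes tested in limma, 0 of the 9 members passed an adjusted p of 0.05, against a background of 0.00895%, and 5 had an unadjusted p under 0.05 with a mean below 0 (background 9.55%). The lowest adjusted p among them were 0.103 for ap, 0.111 for ara and 0.117 for mirr. As probes these had 0.268, 0.274 and 0.277. With 1 probe each, their values were the same in both fits, so only the moderation and the adjustment over all features differed. This also holds for caup and ci, whose unadjusted p in limma were 0.0617 and 0.0562 as probes and 0.0468 and 0.0408 as genes. Of the 9 genes 8 lay below 0 (background 54.0%) and 3 did so on all 4 arrays (background 8.37%): ara, caup and the mean of the 2 Dll probes. The same fit gave the values of the other patterning genes below.

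Most partners and close paralogs of the members had turned means on the members' side. Of 8 listed genes 7 were measured and 6 had a mean below 0 (background 54.0%). The median was -0.092 log units, against 0.06 without turning. None passed an adjusted p of 0.05 in limma, and 3 had an unadjusted p under 0.05 on the negative side (background 9.55%). The lowest was yki (yorkie), the Hippo pathway coactivator that binds Sd, at -0.24 ± 0.03, with -0.292 and -0.147 in replicate 1 and -0.325 and -0.211 in replicate 2 (SD, n = 2; adjusted p = 0.109). All 4 of its values were negative. Chi (Chip), the LIM-domain cofactor that joins Ap proteins into an active complex, lay at -0.13 ± 0.06, and Tgi, which opposes Yki on Sd, at 0.05 ± 0.11. Sp1 and btd, the zinc finger genes that act upstream of Dll in the leg, lay at -0.09 ± 0.05 and -0.03 ± 0.03.

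Genes of dorsal-ventral patterning in the eye disc had a median of -0.127 (-0.037 without turning). Of 10 listed 6 were measured and 5 lay below 0 (background 54.0%). In limma 4 had an unadjusted p under 0.05 on that side (background 9.55%). fng (fringe), the glycosyltransferase gene of the Notch pathway that Iroquois proteins repress, lay at -0.15 ± 0.01 with all 4 arrays negative (SD, n = 2; adjusted p = 0.202 in limma). L (Lobe), needed for growth of the ventral eye, lay at -0.16 ± 0.12 and upd1, the JAK/STAT ligand gene at the midline, at -0.13 ± 0.07. For L the arrays ran from -0.561 to 0.069 and the mean without turning was -0.18. For upd1 the arrays ran from -0.696 to 0.533 and the mean without turning was 0.34. The GATA factor gene pnr (pannier), upstream of the Iroquois genes at the dorsal margin, was at 0.004 ± 0.046. None of the 6 passed an adjusted p of 0.05.

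Wing patterning genes, fng and dve again among them, had a median of -0.035 (0.006 without turning) over the 13 measured of 17. Below 0 lay 8 (background 54.0%), and 3 had an unadjusted p under 0.05 in limma on that side (background 9.55%). Their lowest was tkv (thickveins), the Dpp receptor gene, at -0.33 ± 0.05, with -0.303 and -0.284 in replicate 1 and -0.298 and -0.432 in replicate 2 (SD, n = 2; adjusted p = 0.0881 in limma). All 4 of its values lay well below 0. By contrast its ligand gene dpp lay at -0.06 ± 0.09, and the POU gene vvl at -0.14 ± 0.19. The spalt genes salm and salr, targets of Dpp in the wing, were at -0.01 ± 0.06 and 0.001 ± 0.066.

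Genes of leg and antennal patterning had a median of -0.047 (0.046 without turning) over the 17 measured of 20, with 13 below 0 (background 54.0%). The homeobox gene al (aristaless), active at the tip of leg and antenna, lay at -0.21 ± 0.15. The antennal gene danr lay at -0.17 ± 0.07 and disco-r at -0.16 ± 0.01 (SD, n = 2). The SD is that of replicate means, in which both dye orientations are averaged. Single arrays ran from -0.465 to 0.247 for al, from -0.361 to 0.128 for danr and from -0.538 to 0.202 for disco-r. Without turning disco-r lay at -0.21. These 3 genes had an unadjusted p under 0.05 in limma on the negative side (background 9.55%). On the positive side Lim1, which acts beside al, did too, at 0.15 ± 0.08 (background 6.17%). dac (dachshund), shared by eye and leg, lay at -0.07 ± 0.07. None passed an adjusted p of 0.05 in limma, where al had 0.192 and Lim1 0.239.

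Of the Hedgehog pathway 15 of 18 genes were measured, 12 lay below 0 (background 54.0%) and the median was -0.056 (0.009 without turning). The ligand gene hh, which en switches on in the posterior compartment, lay at -0.10 ± 0.02. The receptor gene ptc, a target of Ci, lay at 0.004 ± 0.030 and the signal transducer smo at -0.08 ± 0.01. Single arrays ran from -0.26 to 0.083 for hh and from -0.301 to 0.155 for smo. Lowest were ttv at -0.17 ± 0.004 and dlp at -0.16 ± 0.05, which make heparan sulfate and a glypican for the spread of Hedgehog. Next came boi, a coreceptor gene, at -0.13 ± 0.08, and these 3 had an unadjusted p under 0.05 in limma (background 9.55%). Su(fu), which holds Ci back, was the highest, at 0.11 ± 0.02 (SD, n = 2), and 0 of the 15 passed an adjusted p of 0.05 in limma. The 3 measured of 8 Hox genes had turned means near 0, with Dfd at -0.05 ± 0.01, Antp at -0.04 ± 0.003 and Scr at 0.05 ± 0.03. For Antp the dye orientations lay apart, with arrays from -0.343 to 0.261 and a mean without turning of 0.18. In all, 56 of 74 patterning genes of these lists were measured and 41 of them lay below 0, with a median of -0.048, against 54.0% of all genes and a median of -0.0072. Without turning 24 of the 56 lay below 0, with a median of 0.009. With turning 14 reached an unadjusted p under 0.05 in limma on the negative side (9.55% of all genes) and 1 on the positive side (6.17%), and 0 an adjusted p of 0.05.

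**Figure D4:**
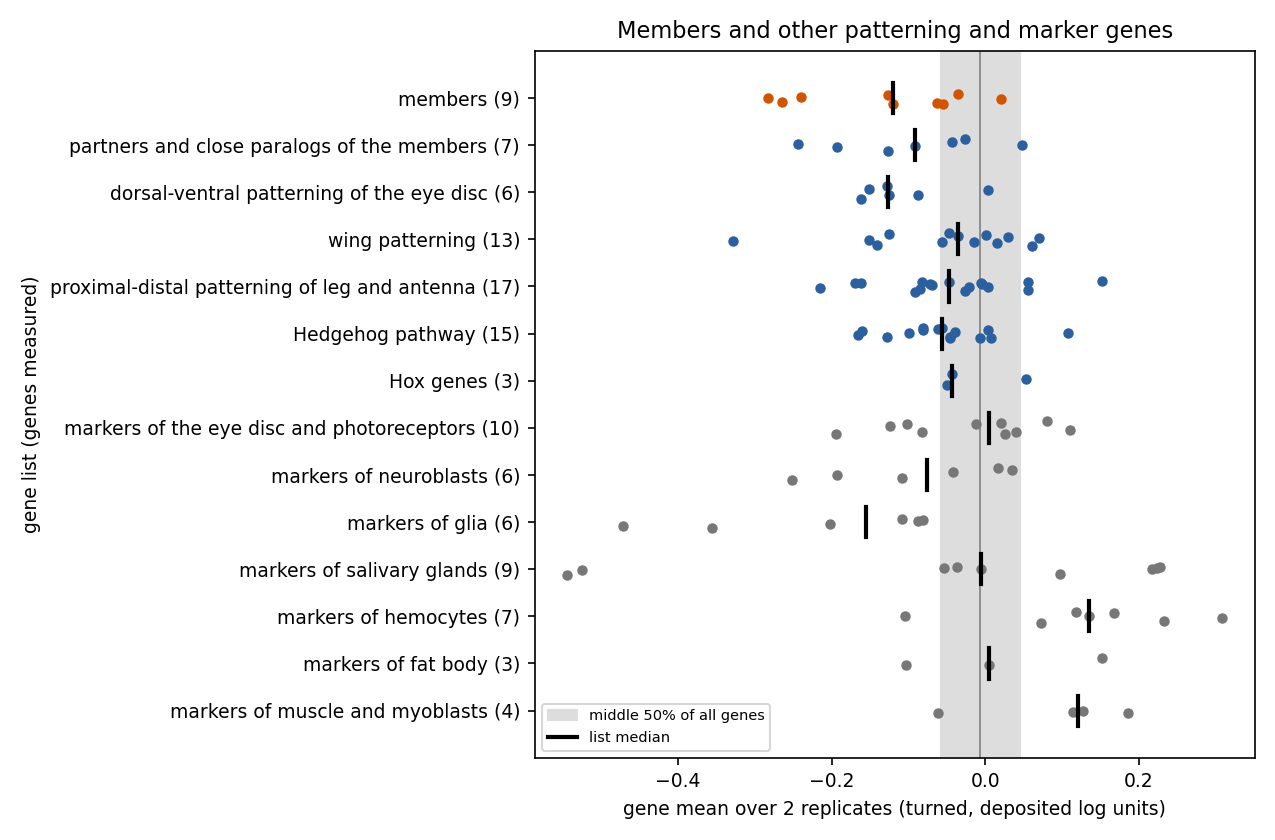
Gene means over 2 replicates, turned and in deposited log units, for the members (orange), the patterning lists (blue) and the cell type marker lists (grey), with a black bar at each list's median and the number of genes measured in brackets. The grey band holds the middle 50% of all genes, from -0.058 to 0.045; the members' median of -0.12 lies left of it, as do those of partners and paralogs, eye dorsal-ventral genes, neuroblast markers and glial markers.

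Markers of other cells in the dissected tissue lay on both sides. All 6 glial markers had a mean below 0 (background 54.0%), from -0.47 for Gs2 to -0.08 for moody. Their median was -0.155 (-0.009 without turning). Of the 6 neuroblast markers 4 lay below 0 (background 54.0%), and mira and insc lay above it. The 6 ran from -0.25 for wor to 0.035 for insc, with a median of -0.076 (0.043 without turning). The 10 markers of the eye disc and photoreceptors ran from -0.195 for sens to 0.11 for ro with 5 below 0 and a median of 0.004. Hemocyte markers lay on the positive side apart from srp, with 6 of 7 above 0, a range from -0.105 to 0.308 and a median of 0.135 (0.026 without turning). Of the 4 measured markers of muscle and myoblasts 3 lay above 0, and the myoblast gene twi, whose cells sit on wing and leg discs, was at -0.06 ± 0.15 (SD, n = 2). The 9 salivary gland markers spread from -0.544 for ng1 to 0.227 for Sgs8, with a median of -0.006, and the 3 of fat body from -0.103 to 0.152. Glial markers thus stood on the members' side and neuroblast markers on both sides. The part of these cell types in the members' values was not tested.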

How the data were processed

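Per the labels' protocols, RNA was precipitated with anti-GFP beads from pooled larval front ends, treated with proteinase K and extracted. The authors deposited 1 table of log ratios per probe and array, whose log base is unknown, so that their unit is recorded as other; how background and dyes were corrected is not stated there. Array medians lay between 0.002 and 0.006. The 16 cells with -10000 were treated as missing, and 14788 to 15394 of 15744 probes had a value per array. No intensity or depth is known.

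Probes were named from the platform annotation: 13147 had 1 gene symbol, 99 several and 2498 none here; 12519 took the current symbol through the gene identifier. Each array was centred on its median and turned by dye. The main test was limma 3.58.1 under R 4.3.3 (lmFit, eBayes, Benjamini-Hochberg) on the 2 replicate means against 0, over the 13963 probes with 4 values, with 3.47 prior degrees of freedom; it was tested on simulated data. The pairing of arrays within a replicate comes from the study's design text, which calls them dye swaps. Deviations of arrays with the same replicate number correlated at r = -0.34 turned and 0.34 as deposited.

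The members and lists were chosen with earlier results of these data known. Genes named were all members, up to 3 of each list by size of the mean, partners or paralogs of a member, and the 3 genes nearest to the median Iroquois profile. Neighbours of the complex and further list members were chosen after their values were seen. Positions of probes were not analysed here, and no sequences are shown.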

Additional observations from a re-analysis of the deposited data

Results flagged for a closer look

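The vg probe 9543 was above 0 on both arrays with GFP-B52 RNA in Cy5 and below 0 on both in Cy3, and its Cy5 mean minus its Cy3 mean was 0.26 log units. The nub probe 3449 showed the opposite order, with a difference of -0.166. Of 108 other genes checked (the lists, the flanking genes and the nearest profiles), 9 changed side with the dye in this way. The share over all genes was not counted, so this number is a description only. The difference was 0.7 for sowah, 0.479 for Tgi, 0.417 for bab2, 0.347 for eya, 0.338 for Sgs4, 0.241 for Sgs1, 0.099 for Sgs3, -0.115 for Dad and -0.363 for Antp. These differences between the dye orientations were not tested.

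On 6 of the 108 genes 1 array stood far from the other 3. The gap to the nearest array was 0.911 of the range for odd, 0.889 for srp, 0.872 for tkv, 0.864 for cos, 0.857 for so and 0.844 for Scr. For tkv this was replicate 2 in Cy3 at -0.432, with the other 3 arrays between -0.303 and -0.284. Chance alone gives such gaps in about 1 in 20 genes.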

How the results depend on the processing

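Without centring, with a common median absolute deviation, with at least 1 array per replicate, with the 4 arrays as separate samples and with a dye term, limma called 0 probes and the members' median stayed between -0.126 and -0.119, with 8 member genes below 0. Robust moderation and genes in place of probes each called 1 probe or gene, which was no member. With the replicate block, 447 probes passed, 2 of them members (ara and ap, adjusted p = 0.0413 each). Crossed pairing of the dye orientations, added after the data were seen, called 1 probe and 0 members. In limma it left ara, mirr and ap under an unadjusted p of 0.05. Dll probe 15415 rose to 0.194 there, ci to 0.208 and caup to 0.234. Without turning 92 probes and 0 members passed, the members' median was -0.018 with 5 genes below 0, and ap at 0.117, nub at 0.0832, Dll at 0.0225, ci at 0.0895 and en at -0.0282 changed side. This reading of the columns cannot be told from the turned one by the labels. Leaving out a replicate or an array, the members' median lay between -0.142 and -0.0808, lowest without replicate 1 in Cy5 and highest without replicate 2 in Cy5, with 7 or 8 genes below 0. nub lay between -0.0865 and 0.015, en between -0.00525 and 0.0457 and vg between -0.165 and 0.056 when an array was left out, so each changed side, and nub was at 0.005 without replicate 1. Over the same settings ara lay between -0.337 and -0.143, mirr between -0.383 and -0.182, ap between -0.385 and -0.142 and ci between -0.173 and -0.0808. With 1 array left out, dye and comparison are not separated in its replicate. Without a replicate there is no test.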
